A study of Saccharomyces cerevisiae with 24 samples.

Results

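The 7 genes described here encode enzymes and a carrier of gluconeogenesis and the glyoxylate cycle in the budding yeast Saccharomyces cerevisiae: PCK1, FBP1, MDH2, ICL1, MLS1, IDP2 and SFC1. They were taken by gene symbol from the array's platform table, with the brightest probe set used for each gene. All 7 were found, each with 1 probe set, among 5449 genes measured. Transcripts were measured on 24 Affymetrix arrays, 1 per chemostat culture, in 8 groups of 3 that the design text calls biological replicates. The strains were snf1Δtor1Δ, which lacks both kinase genes, snf1Δ, tor1Δ and a reference strain. Each strain was grown under ammonia limitation (N-lim, 1 g/L ammonium sulfate) and under glucose limitation (C-lim, 10 g/L glucose in the medium). All cultures were aerobic and were sampled at steady state, at 30 °C and pH 5.0, with the dilution rate set to 0.1 per hour. The genotype label of the snf1Δ arrays is spelled sfn1Δ, while their titles read snf1. The sources used here do not give the strain background, the number of clones per deletion or the residual glucose in the cultures.

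Gluconeogenesis builds glucose phosphates from smaller molecules by running the reversible steps of glycolysis backwards and replacing its irreversible steps with enzymes of its own. The glyoxylate cycle lets cells make these precursors from compounds such as acetate and ethanol, because it bypasses the steps of the TCA cycle that release carbon dioxide. In yeast the genes of both routes are known to be repressed by glucose. The kinase Snf1, the yeast AMP-activated protein kinase, is known to relieve that repression through the activators Cat8, Sip4 and Adr1 and the repressor Mig1. Tor1 is a kinase of TOR complex 1, which ties growth to the nutrient supply.

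Values are log2 signals as deposited by the authors, and changes are differences of group means on that scale, given with a standard error (SE) from groups of 3 arrays. Adjusted p-values are from limma with Benjamini-Hochberg adjustment over all 5449 genes, and a gene was called at an adjusted p under 0.05. The lowest values on the arrays lie near log2 2, and a group mean under log2 3 is described as lying at the floor. A fold against such a group is a lower bound, computed with log2 3 in place of its mean. Array medians lay between 7.80 and 7.99. Within a group, the correlation of arrays over all genes, which are not independent replicates, was 0.993 to 0.999. The deletions were visible in all groups: SNF1 averaged 2.15 in the 4 groups that lack it, against 8.75 to 8.95 in the others, and TOR1 averaged 2.27 in the 4 groups that lack it, against 6.94 to 7.86 in the others. Levels are compared between groups for 1 gene at a time, since probe sets of different genes bind with different strength. RNA came from whole cultures, so fewer cells with a transcript and less transcript per cell cannot be told apart.

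PCK1 (YKR097W) encodes phosphoenolpyruvate carboxykinase, which turns oxaloacetate into phosphoenolpyruvate and is known as a rate-controlling step of gluconeogenesis. In N-lim its log2 values were 5.91, 5.96 and 5.44 in snf1Δtor1Δ, 5.97, 5.96 and 5.82 in snf1Δ, 6.02, 5.75 and 5.76 in tor1Δ, and 5.96, 6.06 and 6.01 in the reference. In C-lim they were 9.17, 9.03 and 9.36 in snf1Δtor1Δ, 6.41, 6.94 and 6.56 in snf1Δ, 8.17, 8.27 and 8.17 in tor1Δ, and 7.80, 7.93 and 7.74 in the reference. The 4 strains overlapped in N-lim. In C-lim no 2 strains overlapped, and snf1Δtor1Δ was highest and snf1Δ lowest, so the strain that lacks both kinases stood above the reference while the strain that lacks SNF1 alone stood below it.

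FBP1 (YLR377C) encodes fructose-1,6-bisphosphatase, the enzyme that reverses the phosphofructokinase step. In N-lim all 12 arrays lay at the floor, with values from 2.25 to 2.41. In C-lim the values were 6.71, 6.50 and 5.85 in snf1Δtor1Δ, 4.11, 4.36 and 4.42 in snf1Δ, 8.84, 9.09 and 9.03 in tor1Δ, and 8.69, 8.64 and 8.94 in the reference. The tor1Δ and reference arrays overlapped, the snf1Δ arrays lay far below them, and the snf1Δtor1Δ arrays lay between, overlapping neither side.

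MDH2 (YOL126C) encodes the cytosolic malate dehydrogenase, which supplies oxaloacetate to gluconeogenesis. In N-lim its values were 7.65, 7.91 and 7.80 in snf1Δtor1Δ, 7.71, 7.77 and 7.79 in snf1Δ, 8.55, 8.35 and 8.36 in tor1Δ, and 8.66, 8.77 and 8.81 in the reference. In C-lim they were 11.21, 11.23 and 10.61 in snf1Δtor1Δ, 10.39, 10.46 and 10.36 in snf1Δ, 11.06, 11.24 and 11.24 in tor1Δ, and 11.17, 10.95 and 11.30 in the reference. In N-lim both strains without SNF1 lay below the other strains and overlapped each other. In C-lim only snf1Δ lay apart from the other strains, and 1 of the 3 snf1Δtor1Δ arrays lay close to it.

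ICL1 (YER065C) encodes isocitrate lyase, which splits isocitrate into succinate and glyoxylate and opens the glyoxylate cycle. In N-lim its values were 6.00, 6.05 and 6.07 in snf1Δtor1Δ, 5.93, 6.08 and 6.04 in snf1Δ, 5.58, 5.67 and 5.54 in tor1Δ, and 5.94, 5.87 and 5.78 in the reference. In C-lim they were 10.56, 10.78 and 10.26 in snf1Δtor1Δ, 9.01, 10.01 and 9.58 in snf1Δ, 9.82, 9.94 and 9.97 in tor1Δ, and 9.88, 10.03 and 10.09 in the reference. In N-lim the tor1Δ arrays were the lowest. In C-lim the snf1Δtor1Δ arrays were the highest, and the snf1Δ arrays were widely spread, 1 of them lying among the reference arrays.

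MLS1 (YNL117W) encodes malate synthase, the second enzyme particular to the cycle, which joins glyoxylate to acetyl-CoA. In N-lim its values were 8.01, 8.07 and 7.94 in snf1Δtor1Δ, 8.77, 8.70 and 8.58 in snf1Δ, 10.30, 10.38 and 10.20 in tor1Δ, and 10.47, 10.59 and 10.35 in the reference. In C-lim they were 9.18, 9.40 and 8.79 in snf1Δtor1Δ, 7.54, 8.30 and 7.94 in snf1Δ, 9.50, 9.45 and 9.48 in tor1Δ, and 9.52, 9.61 and 9.52 in the reference. It was highest in N-lim in the reference and tor1Δ, and its lowest groups were snf1Δtor1Δ in N-lim and snf1Δ in C-lim, which overlapped.

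IDP2 (YLR174W) encodes the cytosolic NADP-dependent isocitrate dehydrogenase, known as a source of NADPH on non-fermentable carbon. In N-lim its values were 6.41, 6.20 and 6.22 in snf1Δtor1Δ, 6.23, 6.15 and 6.09 in snf1Δ, 6.30, 6.37 and 6.29 in tor1Δ, and 6.53, 6.39 and 6.36 in the reference. In C-lim they were 9.10, 9.41 and 8.86 in snf1Δtor1Δ, 9.10, 9.09 and 9.33 in snf1Δ, 10.73, 10.93 and 10.65 in tor1Δ, and 10.79, 10.97 and 11.08 in the reference. In C-lim the arrays formed 2 sets, those without SNF1 and those with it, and within each set the strains overlapped.

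SFC1 (YJR095W) encodes the mitochondrial carrier that exchanges cytosolic succinate, a product of isocitrate lyase, for fumarate. In N-lim all 12 arrays lay at the floor, with values from 2.25 to 2.82. In C-lim they were 10.13, 10.37 and 9.93 in snf1Δtor1Δ, 9.31, 9.78 and 9.75 in snf1Δ, 11.23, 11.21 and 11.33 in tor1Δ, and 11.22, 11.28 and 11.29 in the reference. The reference and tor1Δ arrays overlapped, and the snf1Δ arrays were the lowest.

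**Figure D1:**
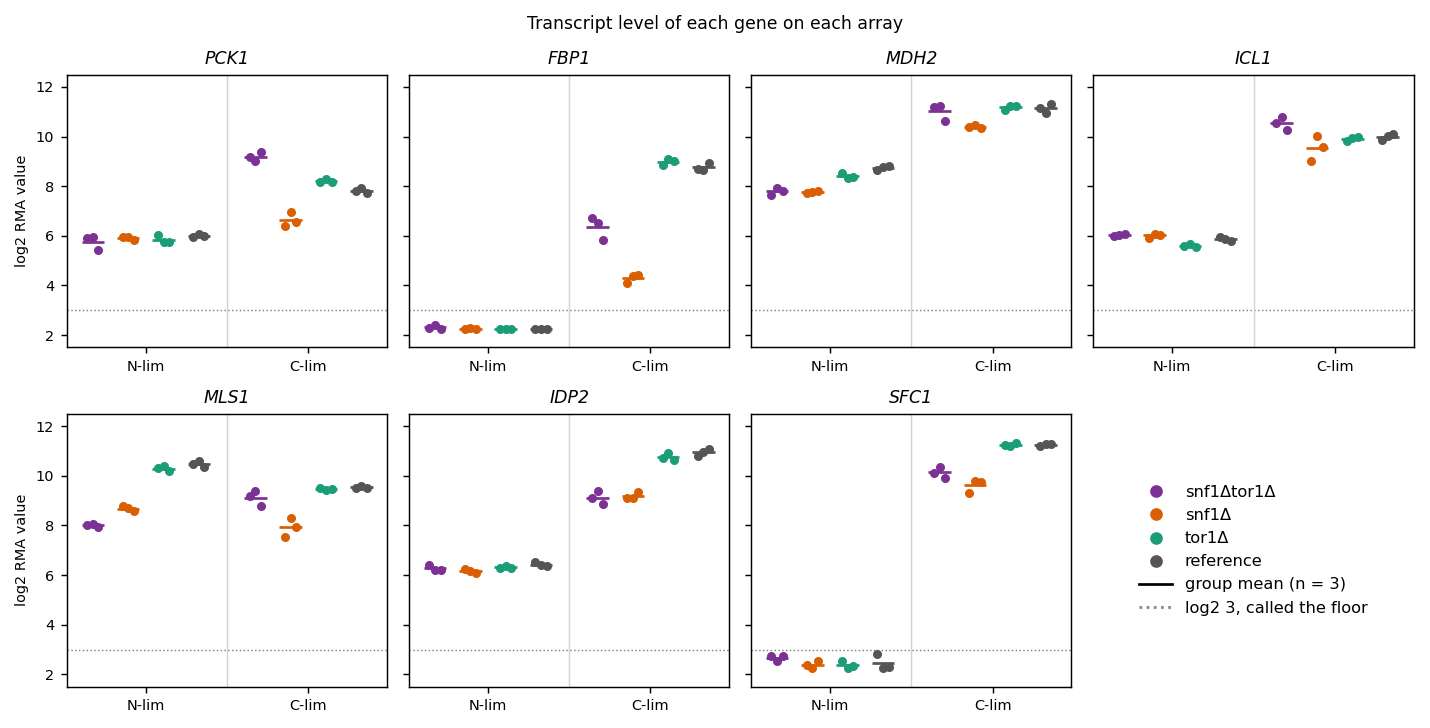
Deposited log2 values of the 7 genes on every array (points) with group means, by strain and limitation. For all genes except MLS1 the N-lim arrays of each strain lie below its C-lim arrays. MLS1 lies higher in N-lim in every strain except snf1Δtor1Δ.

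The first comparison asked how the limitation set the levels of these genes within each strain. In the reference 6 of the 7 genes fell in N-lim relative to C-lim and MLS1 rose. The background was large: 41.5% of all genes were higher and 25.7% lower, 67.2% in either direction, and with each array centred on its median the split was 1845 higher and 2024 lower genes. Arrays of the 2 limitations did not overlap for any of the 7 genes, as for 67.4% of all genes. The median change of the 7 genes was -4.14, against 0.08 over all genes (-0.028 with median-centred arrays).

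The carrier gene SFC1 fell at least 307-fold in N-lim in the reference, and the fructose-1,6-bisphosphatase gene FBP1 at least 54.1-fold, both to the floor. IDP2 fell by 4.52 ± 0.11 on the log2 scale (SE, adjusted p = 1.43e-16, limma), a 23.0-fold difference. ICL1 averaged 5.86 ± 0.08 in N-lim and 10.00 ± 0.11 in C-lim (SD, n = 3 each), 17.6-fold lower. The remaining falls were smaller, 5.26-fold for MDH2 and 3.52-fold for PCK1. MLS1 averaged 10.47 ± 0.12 in N-lim and 9.55 ± 0.05 in C-lim, and its rise was 0.92 ± 0.15 (adjusted p = 1.91e-05, limma), 1.90-fold. The signals of ICL1 and MLS1, for the 2 enzymes particular to the glyoxylate cycle, differed in opposite directions between limitations. DAL7, for a related malate synthase, was higher by 4.03 in N-lim, and how much of its transcript bound the MLS1 probe set was not tested.

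The deletion strains gave the following within-strain changes. In tor1Δ the same 6 genes were called lower and MLS1 higher, where 37.4% of all genes were higher and 27.5% lower (64.9% in all), with log2 changes of -2.36 for PCK1, -2.76 for MDH2, -4.32 for ICL1 and -4.45 for IDP2. SFC1 was at least 306-fold and FBP1 at least 63.6-fold lower, and MLS1 was higher by 0.82 ± 0.15 (adjusted p = 7.53e-05, limma). In snf1Δ again 6 were called lower and MLS1 higher, by 0.75 ± 0.15 (adjusted p = 0.000246, limma), where 32.4% of all genes were higher and 23.0% lower (55.4% in all). FBP1, already low in C-lim in this strain, was at least 2.46-fold lower in N-lim, and PCK1 fell by 0.72 ± 0.13 (adjusted p = 0.000153, limma). SFC1 was at least 97.8-fold lower, and the changes of ICL1, IDP2 and MDH2 were -3.52, -3.02 and -2.65.

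In snf1Δtor1Δ all 7 genes fell in N-lim relative to C-lim, MLS1 among them, where 58.6% of all genes were called and 23.2% were lower. MLS1 averaged 8.01 ± 0.06 in N-lim and 9.13 ± 0.31 in C-lim, a change of -1.12 ± 0.15 (adjusted p = 2.81e-06, limma). PCK1 changed by -3.41 ± 0.13, a 10.7-fold difference. ICL1, MDH2 and IDP2 changed by -4.49, -3.23 and -2.85, SFC1 was at least 141-fold lower and FBP1 at least 10.2-fold lower. The bounds for FBP1 and SFC1 depend on the level taken as the floor and are smaller at a higher one.

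**Figure D2:**
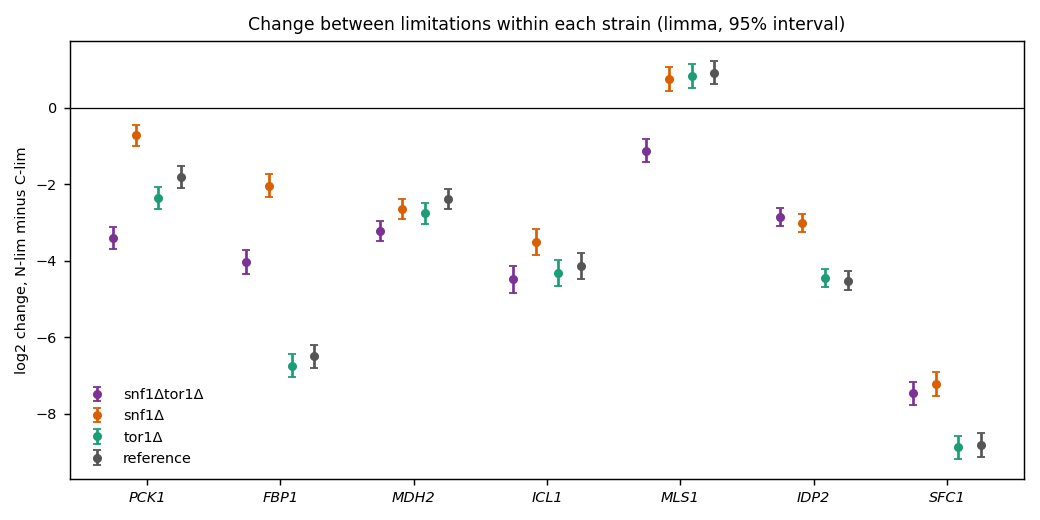
Log2 change of the 7 genes, N-lim minus C-lim, in each strain, with 95% confidence intervals from the limma fit. MLS1 is above 0 in snf1Δ, tor1Δ and the reference, from 0.75 to 0.92, and at -1.12 in snf1Δtor1Δ. The other 6 genes are below 0 in every strain. FBP1 and SFC1 lie at the floor in N-lim, so their plotted changes depend on where the floor lies and do not measure the size of the fall.

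Deletion of SNF1 was compared with the reference under glucose limitation, where Snf1 is known to be active. All 7 genes fell in snf1Δ, where 21.6% of all genes were lower and 62.1% changed in either direction. The median change of the 7 was -1.62, against 0.10 over all genes. For 6 of the 7 genes the snf1Δ and reference arrays did not overlap, as for 61.6% of all genes. The comparisons of the 3 deletion strains with the reference share the reference arrays, and so share their chance deviations.

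The largest of these differences was in FBP1, which averaged 4.30 ± 0.16 in snf1Δ and 8.76 ± 0.16 in the reference (SD, n = 3 each), 22.0-fold lower (adjusted p = 2.35e-14, limma). IDP2 fell by 1.78 ± 0.11 and SFC1 by 1.65 ± 0.15 (SE). MLS1 fell by 1.62 ± 0.15, a 3.07-fold difference. PCK1 fell by 1.19 ± 0.13 (adjusted p = 4.57e-07, limma) and MDH2 by 0.74 ± 0.13 (adjusted p = 5.81e-05, limma). ICL1 had the smallest difference, 9.53 ± 0.50 in snf1Δ and 10.00 ± 0.11 in the reference, with arrays that overlapped and an adjusted p of 0.0198 (limma). The ICL1 call rested on single arrays: its change was -0.21 (adjusted p = 0.173, limma) without snf1Δ replicate 10 and -0.42 (adjusted p = 0.0652, limma) without reference replicate 11. It also missed the threshold with only these 2 groups in the fit (adjusted p = 0.188, limma) and with the replicate number as a block (adjusted p = 0.0633, limma).

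In N-lim, 2 of the 7 genes fell in snf1Δ relative to the reference, MLS1 and MDH2, where 17.0% of all genes were lower and 31.1% were called in either direction. MLS1 averaged 8.68 ± 0.10 in snf1Δ and 10.47 ± 0.12 in the reference, 3.46-fold lower (adjusted p = 3.91e-08, limma). MDH2 averaged 7.76 ± 0.04 in snf1Δ and 8.75 ± 0.08 in the reference, 1.98-fold lower (adjusted p = 8.84e-06, limma). IDP2 had a change of -0.27 ± 0.11 (adjusted p = 0.0774, limma), with arrays that did not overlap, and was called with only these 2 groups in the fit (adjusted p = 0.0149, limma). PCK1 (-0.09, 95% interval -0.38 to 0.19) and ICL1 (0.15, interval -0.19 to 0.50) did not pass, and FBP1 and SFC1 lay at the floor in both strains.

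The deletion's change in N-lim minus its change in C-lim was tested as an interaction of SNF1 with the limitation. It was called for 5 of the 7 genes, all positive, where 16.2% of all genes were positive and called and 47.2% were called in either direction. The values were 4.47 ± 0.21 for FBP1, 1.59 ± 0.21 for SFC1, 1.51 ± 0.16 for IDP2, 1.09 ± 0.19 for PCK1 and 0.62 ± 0.23 for ICL1 (SE, adjusted p from 1.24e-11 to 0.0362, limma). FBP1 and SFC1 could not fall further in N-lim, where both lay at the floor, so their interaction values hold only what changed in C-lim. The ICL1 value lost its call without snf1Δ C-lim replicate 10, where it was 0.36, and in 6 of the other fits that left out 1 array. For MLS1 (-0.17, interval -0.61 to 0.26) and MDH2 (-0.25, interval -0.63 to 0.12), the genes that fell under both limitations, the interaction was not called.

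Deletion of TOR1 alone was compared with the reference under each limitation. In C-lim 0 of the 7 genes were called by limma, and 1, PCK1, had an unadjusted p under 0.05, where 1.06% of all genes were called. PCK1 averaged 8.20 ± 0.06 in tor1Δ and 7.82 ± 0.10 in the reference (SD, n = 3 each), a difference of 0.38 with an interval of 0.09 to 0.66 (adjusted p = 0.202, limma). The PCK1 arrays did not overlap, nor did those of MLS1, at a background of 13.6% of genes that did not overlap. The differences of the other 6 genes lay between -0.18 for IDP2 and 0.23 for FBP1, and their intervals spanned -0.44 to 0.54.

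In N-lim 0 of the 7 genes were called by limma in tor1Δ relative to the reference, where 2.92% of all genes were called, and 1, MDH2, had an unadjusted p under 0.05. MDH2 averaged 8.42 ± 0.11 in tor1Δ and 8.75 ± 0.08 in the reference, a difference of -0.33 with an interval of -0.59 to -0.06 (adjusted p = 0.217, limma). It was called without snf1Δtor1Δ C-lim replicate 3 (adjusted p = 0.0395, limma), an array of neither group that enters through the shared spread. ICL1 differed by -0.26 (interval -0.61 to 0.08). The arrays of MDH2 and ICL1 did not overlap between the strains, as for 21.1% of all genes. PCK1, MLS1 and IDP2 had differences between -0.18 and -0.11. The interaction of TOR1 with the limitation was called for 0 of the 7 genes by limma, with 1 at an unadjusted p under 0.05, PCK1, and for 0.973% of all genes.

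**Figure D3:**
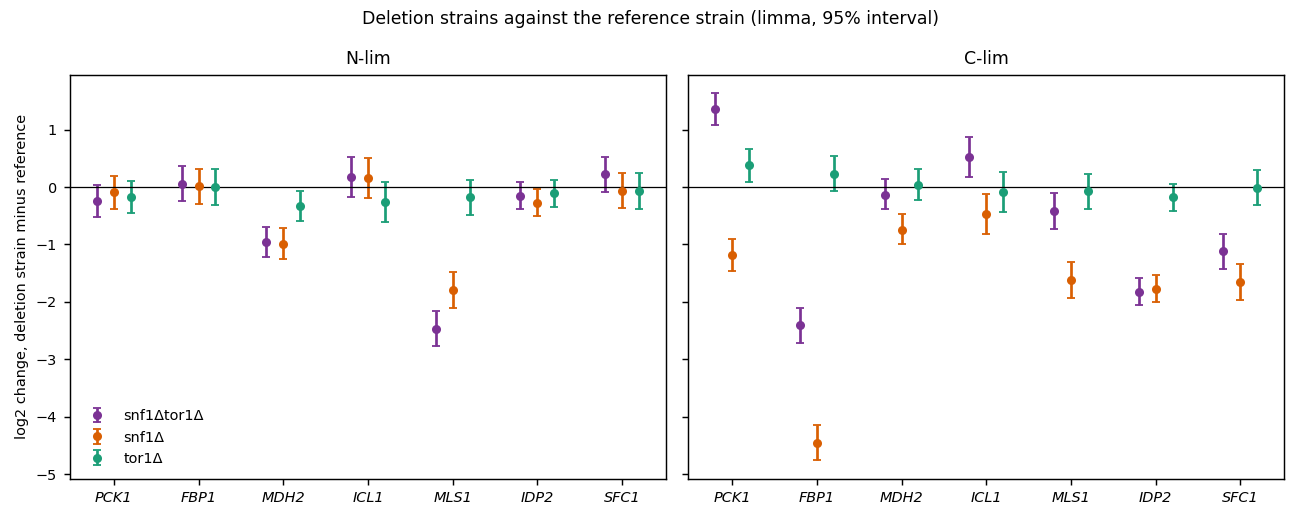
Log2 change of the 7 genes in each deletion strain minus the reference, in N-lim and in C-lim, with 95% confidence intervals from the limma fit. In C-lim the snf1Δ points all lie below 0 and the tor1Δ points lie between -0.18 and 0.38. The snf1Δtor1Δ points run from -2.40 for FBP1 to 1.36 for PCK1.

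Loss of TOR1 in cells that already lacked SNF1 was a different comparison, snf1Δtor1Δ against snf1Δ. In C-lim 6 of the 7 genes rose, and IDP2 was not called. The background was 10.8% of all genes higher and 17.2% called in either direction, and with median-centred arrays the split of all genes was 413 higher and 466 lower, against 586 higher and 351 lower as deposited. The median change of the 7 genes was 1.00, against 0.03 over all genes. The arrays of the 6 genes did not overlap between the strains, as for 35.4% of all genes.

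PCK1 averaged 9.19 ± 0.17 in snf1Δtor1Δ and 6.64 ± 0.27 in snf1Δ (SD, n = 3 each), 5.85-fold higher (adjusted p = 5.6e-10, limma). FBP1 averaged 6.35 ± 0.45 in snf1Δtor1Δ and 4.30 ± 0.16 in snf1Δ, 4.15-fold higher (adjusted p = 3.87e-08, limma). The glyoxylate cycle genes MLS1 and ICL1 rose by 1.20 ± 0.15 (adjusted p = 3.35e-05, limma) and 1.00 ± 0.17 (adjusted p = 0.000471, limma). MDH2 rose by 0.61 ± 0.13 (adjusted p = 0.00282, limma) and SFC1 by 0.53 ± 0.15 (adjusted p = 0.0183, limma). IDP2 differed by -0.05, with an interval of -0.28 to 0.19, and the arrays of both strains overlapped.

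With only these 2 groups in the fit, 2 of the 7 genes were called, PCK1 and FBP1, where 7.36% of all genes were called. In that fit the adjusted p was 0.0518 for MLS1, 0.0907 for ICL1, 0.0972 for MDH2 and 0.115 for SFC1 (limma). The SFC1 call was also lost without snf1Δ replicate 10, at 0.38 (adjusted p = 0.106, limma), and without snf1Δtor1Δ replicate 1 (adjusted p = 0.0542, limma) or 2 (adjusted p = 0.106, limma).

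**Figure D4:**
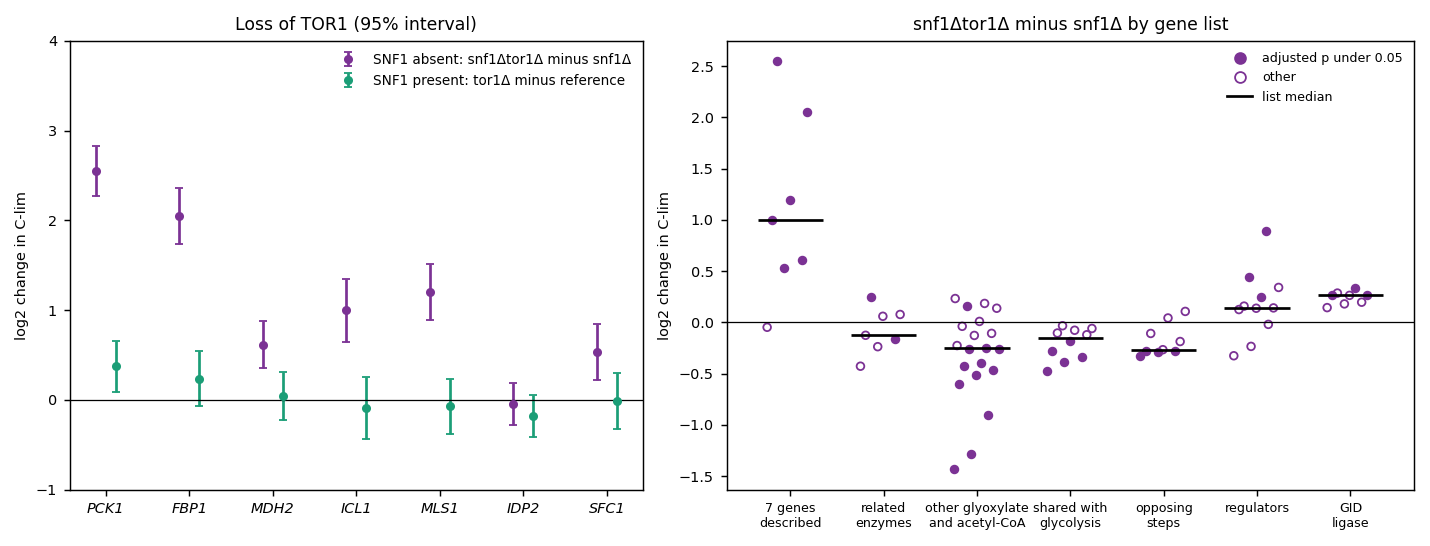
Left, log2 change on loss of TOR1 in C-lim in cells without SNF1 (snf1Δtor1Δ minus snf1Δ) and in cells with SNF1 (tor1Δ minus reference), with 95% confidence intervals from the limma fit. PCK1 is at 2.55 without SNF1 and 0.38 with it, and FBP1 at 2.05 and 0.23. Right, the change in cells without SNF1 for the 7 genes (median 1.00) and for 6 lists of other pathway genes and regulators, whose medians lie between -0.27 and 0.26 (filled points are genes called, bars are medians).

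Whether the effect of losing TOR1 differed between cells without and with SNF1 was tested as the interaction of both deletions. In C-lim it was called for 4 of the 7 genes, all positive, where 2.88% of all genes were positive and called and 5.74% were called in either direction. PCK1 had 2.17 ± 0.19 (SE, adjusted p = 2.27e-06, limma), FBP1 1.82 ± 0.21, MLS1 1.27 ± 0.21 and ICL1 1.09 ± 0.23 (adjusted p = 0.00906, limma). MDH2 had 0.57 ± 0.18 (adjusted p = 0.0715, limma) and was called with median-centred arrays (adjusted p = 0.0483, limma) and without snf1Δtor1Δ replicate 3, at 0.77 (adjusted p = 0.000949, limma). SFC1 had 0.54 ± 0.21 (adjusted p = 0.150, limma), and IDP2 had 0.13, with an interval of -0.21 to 0.46. With values under the floor set to the floor SFC1 was called (adjusted p = 0.0296, limma). The C-lim values of SFC1 all lay above the floor, so that setting left its change at 0.54. What differed was the estimate of the spread, into which the SFC1 N-lim arrays enter (SE 0.14 in place of 0.21). That call therefore adds nothing on the interaction. The ICL1 interaction was lost with only the 4 C-lim groups in the fit (adjusted p = 0.113, limma). In N-lim the interaction was called for 0 of the 7 genes by limma, with 1 at an unadjusted p under 0.05, MLS1, and for 0.697% of all genes.

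Relative to the reference in C-lim, the strain that lacks both kinases had 2 of the 7 genes higher, PCK1 and ICL1, and 4 lower, FBP1, IDP2, SFC1 and MLS1, where 61.4% of all genes were called, 42.7% higher and 18.8% lower. With median-centred arrays the split over all genes was 1887 higher and 1508 lower, against 2326 and 1022 as deposited. PCK1 was 2.57-fold higher (adjusted p = 8.41e-08, limma), while the other enzyme particular to gluconeogenesis, encoded by FBP1, was 5.29-fold lower (adjusted p = 1.22e-10, limma). IDP2 was 3.54-fold lower and SFC1 2.18-fold lower. ICL1 averaged 10.53 ± 0.26 in snf1Δtor1Δ and 10.00 ± 0.11 in the reference, a difference of 0.53 ± 0.17 (adjusted p = 0.00954, limma). MLS1 differed by -0.42 ± 0.15 (adjusted p = 0.0184, limma), and MDH2 by -0.13, with an interval of -0.39 to 0.14.

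The 2 smallest of these calls rested on single arrays. ICL1 was 0.41 (adjusted p = 0.0596, limma) without snf1Δtor1Δ replicate 2, and MLS1 was -0.25 (adjusted p = 0.137, limma) without snf1Δtor1Δ replicate 3 and -0.39 (adjusted p = 0.0521, limma) without reference replicate 10. MLS1 also missed the threshold with only these 2 groups in the fit (adjusted p = 0.0743, limma).

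In C-lim snf1Δtor1Δ was also set against tor1Δ, which gives the effect of losing SNF1 in cells without TOR1. PCK1 and ICL1 were higher and FBP1, IDP2 and SFC1 lower, where 56.0% of all genes were called, 37.3% higher and 18.7% lower. PCK1 was 1.98-fold higher (adjusted p = 5.4e-06, limma) and ICL1 1.53-fold higher (adjusted p = 0.00383, limma), the opposite sign from their change on losing SNF1 in cells with TOR1. For ICL1 the arrays of that earlier change overlapped and its call was lost in several alternative fits, so its opposite sign is less certain. FBP1 was 6.22-fold lower, IDP2 3.13-fold lower and SFC1 2.16-fold lower. MLS1 differed by -0.35 ± 0.15 and lay at the edge of the threshold (adjusted p = 0.0516, limma). MDH2 differed by -0.17, with an interval of -0.43 to 0.10.

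In N-lim, MLS1 and MDH2 were the members lower in snf1Δtor1Δ than in the reference, where 40.3% of all genes were called and 16.4% were lower. MLS1 averaged 8.01 ± 0.06 in snf1Δtor1Δ and 10.47 ± 0.12 in the reference, 5.52-fold lower (adjusted p = 4.62e-10, limma). MDH2 was 1.94-fold lower (adjusted p = 8.99e-06, limma). MLS1 was also lower in snf1Δtor1Δ than in snf1Δ, by -0.67 ± 0.15 (adjusted p = 0.00762, limma), as the sole member called there, where 3.10% of all genes were lower and 10.6% were called (409 higher and 169 lower, or 167 and 271 with median-centred arrays). On losing TOR1 in cells without SNF1, MLS1 therefore fell in N-lim by 0.67 and rose in C-lim by 1.20.

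Against tor1Δ in N-lim, snf1Δtor1Δ had MLS1 lower by -2.29 and MDH2 lower by -0.63 (adjusted p = 0.000808, limma), where 11.8% of all genes were lower, 21.7% higher and 33.5% called in all (800 higher and 882 lower with median-centred arrays). ICL1 was higher by 0.44 (adjusted p = 0.0481, limma), a call at the edge of the threshold that was lost in most fits that left out 1 array. The interaction of the double deletion with the limitation was called for 6 of the 7 genes, where 17.9% of all genes were positive and called, 28.8% negative and called, and 46.7% called in all. It was 2.47 for FBP1, 1.67 for IDP2 and 1.34 for SFC1, and -2.04 for MLS1, -1.60 for PCK1 and -0.83 for MDH2 (adjusted p from 1.95e-08 to 0.00082, limma). ICL1 had -0.35, with an interval of -0.85 to 0.14. FBP1 and SFC1 lay at the floor in N-lim in both strains, so their values rest on the C-lim changes of -2.40 and -1.12.

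The order of the 8 groups differed among the genes. The 4 C-lim groups ranked above the 4 N-lim groups for all genes except MLS1. Among the C-lim groups, snf1Δtor1Δ ranked first for PCK1 and ICL1, tor1Δ and the reference overlapped at the top for FBP1, MDH2, IDP2 and SFC1, and snf1Δ came last for all but IDP2. For MDH2, snf1Δtor1Δ overlapped the reference as well. For MLS1 the order was reference N-lim, tor1Δ N-lim, reference C-lim, tor1Δ C-lim, snf1Δtor1Δ C-lim, snf1Δ N-lim, snf1Δtor1Δ N-lim and snf1Δ C-lim, and the first pair and the last pair overlapped. Over the 8 group means, 15 pairs of genes without MLS1 had Pearson r from 0.811 to 0.986, and 6 pairs with MLS1 from -0.196 to 0.065. These correlations are a description, and the points share the contrast between limitations. Within the 4 C-lim groups alone the pairs with MLS1 had r from 0.57 to 0.995 and the pairs without it from -0.118 to 0.991, and within the 4 N-lim groups, where FBP1 and SFC1 lay at the floor, from -0.839 to 0.945 and from -0.724 to 0.951.

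For each of the 7 genes the other genes of the most similar pattern over the 8 group means were looked up by Pearson r, among genes whose highest group mean was above the floor. They were DSC3, PFD1 and TEF2 for PCK1 (r from 0.956 to 0.967), GDS1, YPR172W and YKL107W for FBP1 (0.991 to 0.993), and JAC1, TAM41 and MIC27 for MDH2 (0.993 to 0.994). For ICL1 they were YAT2, QRI5 and RTT103 (0.989 to 0.994), for IDP2 CTA1, NDE2 and RRT6 (0.996 to 0.998), and for SFC1 SDS23, IMP1 and MGR2 (0.994 to 0.996). For MLS1 the closest were YGR111W, ENV7 and YER010C, with lower r (0.913 to 0.935). No gene appeared in more than 1 of these groups of 3. The 8 points share the contrast between limitations here too, so separate groups of 3 do not show that the patterns are distinct.

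Enzymes related to the 7 gene products were read in the same fits. DAL7 encodes a second malate synthase, known from the breakdown of allantoin as a nitrogen source, and is a close relative of MLS1. DAL7 averaged 10.69 in N-lim and 6.66 in C-lim in the reference, a rise of 4.03 ± 0.15 (adjusted p = 3.6e-14, limma). In snf1Δ in N-lim, where MLS1 fell by 1.79, DAL7 had a change of -0.09 ± 0.15 (adjusted p = 0.733, limma). In snf1Δ in C-lim, where MLS1 fell by 1.62, DAL7 rose by 0.63 ± 0.15 (adjusted p = 0.0011, limma; 0.0584 with only these 2 groups in the fit).

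Of the 7 related genes, 2 rose and 5 fell in N-lim relative to C-lim in the reference, where 41.5% of all genes were higher and 25.7% lower, with a median change of -0.60 against 0.08 over all genes. IDP3, for the peroxisomal isocitrate dehydrogenase, fell by 3.21 ± 0.17, while IDP1, for the mitochondrial one, rose by 0.48 ± 0.05. ICL2, for the mitochondrial 2-methylisocitrate lyase, fell by 2.48 ± 0.12. MDH1 and MDH3, for the mitochondrial and peroxisomal malate dehydrogenases, fell by 0.82 and 0.60, and FBP26, for fructose-2,6-bisphosphatase, by 0.29. In snf1Δ in C-lim, where 40.5% of all genes were higher and 21.6% lower, 3 rose (IDP1, DAL7 and MDH3), 3 fell (ICL2, IDP3 and FBP26), and MDH1 was not called. IDP3 fell by 1.34 and ICL2 by 1.69, whereas IDP1 rose by 0.79. On loss of TOR1 in snf1Δ cells in C-lim, FBP26 rose by 0.25 and IDP1 fell by 0.16, calls that were lost with only these 2 groups in the fit (adjusted p = 0.0876 and 0.0942, limma). The other 5 were not called, ICL2 among them at -0.24 ± 0.12 (adjusted p = 0.208, limma).

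**Figure D5:**
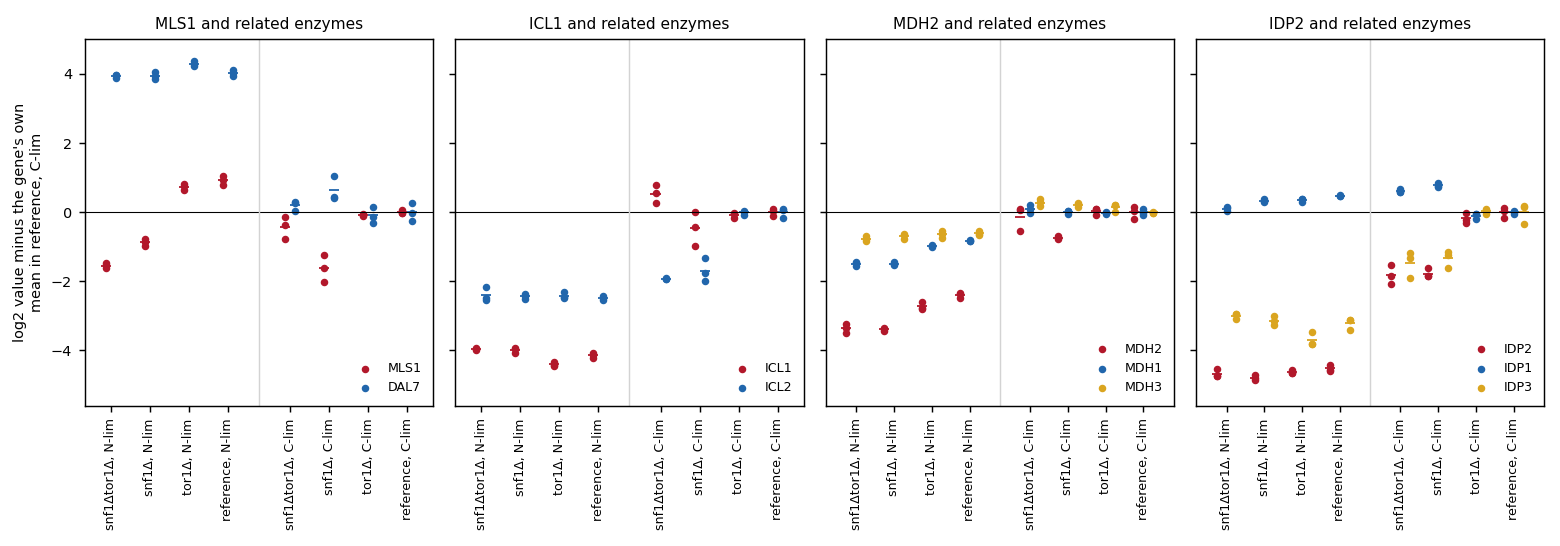
Log2 values of MLS1, ICL1, MDH2 and IDP2 and of related enzymes, each minus the gene's own mean in the reference in C-lim, by strain and limitation (points are arrays, bars are group means). DAL7 lies near 4 in N-lim in all strains, while MLS1 lies below its C-lim reference level in N-lim in both strains without SNF1.

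Other genes that feed the pathway were followed as lists. Of 20 genes of acetate and acetyl-CoA supply, carnitine shuttle, citrate synthesis, pyruvate carboxylation and mitochondrial carriers, 4 rose in N-lim relative to C-lim in the reference (CIT2, ACS2, PYC1 and OAC1) and 13 fell, against 41.5% and 25.7% of all genes. The acetate transporter gene ADY2 averaged 2.54 in N-lim, at the floor, and 10.97 in C-lim, at least 251-fold lower, and the lactate transporter gene JEN1 fell by 6.39. In snf1Δ in C-lim 11 of the 20 rose and 7 fell, where 40.5% of all genes were higher and 21.6% lower, with a median change of 0.32 against 0.10 over all genes. CIT2, for the peroxisomal citrate synthase of the glyoxylate cycle, rose by 2.01 ± 0.10 (adjusted p = 8.3e-12, limma), and the acetyl-carnitine carrier gene CRC1 by 3.50 ± 0.18. ADY2 fell by 7.18, and ACS1, for an acetyl-CoA synthetase, fell by 2.50.

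On loss of TOR1 in snf1Δ cells in C-lim, 1 of these 20 genes rose, ACO1 for aconitase, and 11 fell, where 10.8% of all genes were higher and 6.44% lower, with a median of -0.25 against 0.03 over all genes. With only these 2 groups in the fit 0 rose and 3 fell by limma, and between 4 and 11 fell when 1 array was left out. ACO1 changed by 0.16 ± 0.05 (adjusted p = 0.0416, limma), and its call was lost without any 1 of the 6 arrays compared and with median-centred arrays (0.12, adjusted p = 0.195, limma). The citrate synthase gene CIT3 fell by 1.28 ± 0.23 (adjusted p = 0.001, limma; 0.1 with only these 2 groups in the fit). ADY2 had log2 values of 2.40, 2.41 and 2.26 in snf1Δtor1Δ, at the floor, and 5.30, 2.93 and 3.13 in snf1Δ, at least 1.73-fold lower, with 1 snf1Δ array well above the other two. Its fitted change of -1.43 (adjusted p = 0.0186, limma) was -0.67 without snf1Δ replicate 10, lost its call without snf1Δtor1Δ replicate 1 or 2 (adjusted p = 0.0553 and 0.0534, limma), and was -0.81 and not called with values under the floor set to the floor (adjusted p = 0.153, limma). JEN1 changed by -0.90 ± 0.29 (adjusted p = 0.0384, limma), and by -0.62 without snf1Δ replicate 10 (adjusted p = 0.186, limma), and its call was also lost without any 1 snf1Δtor1Δ array. ACS1 changed by -0.60 ± 0.18 (adjusted p = 0.0334, limma), by -0.43 without snf1Δ replicate 10 (adjusted p = 0.164, limma) and by -0.38 without snf1Δtor1Δ replicate 3 (adjusted p = 0.153, limma).

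In the same comparison, where 10.8% of all genes were higher and 6.44% lower, glycolytic genes were counted. Of 10 genes of the reversible steps of glycolysis, 0 rose and 5 fell by limma (GPM2, TDH1, ENO1, ENO2 and GPM1), and 2 fell with only these 2 groups in the fit. Of 9 genes for the steps that oppose gluconeogenesis, 0 rose and 4 fell by limma (PFK1, PFK2, PYK2 and HXK1), and between 2 and 4 fell when 1 array was left out. PFK1 and PFK2 encode phosphofructokinase, PYK2 a pyruvate kinase and HXK1 a hexokinase. Other genes for the last 2 steps were not called: CDC19 at -0.11, HXK2 at -0.19 and GLK1 at -0.27 (adjusted p = 0.199, 0.255 and 0.132, limma).

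The steps that oppose gluconeogenesis were also read between limitations. In N-lim relative to C-lim in the reference, where 41.5% of all genes were higher and 25.7% lower, 6 of 9 rose, with PFK27, for a 6-phosphofructo-2-kinase, higher by 2.52 ± 0.18, and 3 fell (HXK1, GLK1 and PFK26). In snf1Δ in C-lim, against 40.5% of all genes higher and 21.6% lower, 6 rose and 2 fell, PFK26 and GLK1, with a median change of 0.38. PFK27 rose there by 1.97 ± 0.18 (adjusted p = 3.6e-08, limma) while FBP1, whose product reverses phosphofructokinase, fell by 4.46. Of the 10 reversible glycolytic genes, 2 rose and 2 fell in N-lim, and 4 rose and 3 fell in snf1Δ in C-lim, where the TDH3 call was lost in most fits that left out a compared array and TDH1 fell by 1.04.

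Transcripts of 11 known regulators were read beside these results. In N-lim relative to C-lim in the reference, where 67.2% of all genes were called (41.5% higher and 25.7% lower), 4 of the 11 rose (MIG2, MIG3, ERT1 and OPI1) and 6 fell. The activator gene SIP4 averaged 2.62 in N-lim, at the floor, and 7.52 in C-lim, at least 22.9-fold lower, while ADR1 fell by 3.04 ± 0.14 and CAT8 by 2.30 ± 0.11. The repressor gene MIG2 rose by 5.25 ± 0.17. In snf1Δ in C-lim, where 62.1% of all genes were called, SIP4 fell by 1.78 ± 0.28, CAT8 by 1.16 ± 0.11, RDS2, for a regulator of gluconeogenic genes, by 0.74 and MIG1 by 0.65, and MIG2, HAP4 and ERT1 rose. MIG2 was higher by 0.74, and by 0.48 without snf1Δ replicate 10. On loss of TOR1 in snf1Δ cells in C-lim, 3 of the 11 rose, where 10.8% of all genes were higher: SIP4 by 0.89 ± 0.28 (adjusted p = 0.0384, limma), MIG3 by 0.45 and ERT1 by 0.25. The MIG3 signal was weak in both strains, with values from 3.70 to 4.24, not far above the floor. SIP4 was 0.66 without snf1Δ replicate 11 (adjusted p = 0.167, limma) and lost its call in 3 of the other fits that left out 1 array, and 1 of the 11 was called with only these 2 groups in the fit. CAT8 averaged 6.28 in snf1Δtor1Δ and 6.16 in snf1Δ and was not called.

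The GID ubiquitin ligase marks gluconeogenic enzymes for breakdown when glucose returns, and 8 of its 11 listed genes were measured. In snf1Δ in C-lim, where 40.5% of all genes were higher and 21.6% lower, 1 of the 8 rose, RMD5, and 6 fell, among them the ubiquitin-conjugating enzyme gene UBC8 by 0.73 ± 0.08 (adjusted p = 2.21e-07, limma), with a median change of -0.55. The RMD5 call was lost without snf1Δ replicate 10 (0.26, adjusted p = 0.104, limma) or 11 (adjusted p = 0.0501, limma). On loss of TOR1 in snf1Δ cells in C-lim 3 rose, VID30, GID7 and GID8, by 0.34, 0.27 and 0.26, where 10.8% of all genes were higher and 6.44% lower. With only these 2 groups in the fit 0 were called by limma, and VID30 had an adjusted p of 0.0501. In N-lim relative to C-lim in the reference 1 of the 8 rose, VID24 by 0.79, and 1 fell, VID30 by 0.31, where 41.5% of all genes were higher and 25.7% lower. The arrays measure transcripts, so protein levels of the 7 gene products under this ligase were not measured.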

How the data were processed

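Transcripts were measured on 24 Affymetrix arrays. The values used are the deposited log2 signals per probe set. The submitters' processing notes name RMA and affy as the authors' tools. The sources used here do not give versions, a genome build or the set of arrays normalized together. Of 5716 probe sets, the platform table names 1 gene for 5498 and several for 0, and the 218 not in it were left out. The brightest probe set stood for each of 47 genes with more than 1, giving 5449 genes. The RefSeq table of assembly R64 updated 12 symbols. No column of another series was present (0 unmapped columns).

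Groups were taken from titles and genotype labels. A limma model (limma 3.58.1, R 4.3.3) estimated the mean of each of the 8 groups per gene from all 24 arrays, with 16 residual and 1.71 prior degrees of freedom. It gave 19 comparisons, each with Benjamini-Hochberg adjustment of its own and a threshold of 0.05. The fit was also run on simulated data, in which the spread of a gene was equal in all groups and no floor was set. How the fit behaves with groups of unequal spread was not tested. Intervals are 95% confidence intervals per gene, not adjusted over genes. The floor was set at log2 3, and 291 genes (5.34%) lay under it in all groups. The number of arrays limits the precision.

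The 7 genes and the gene lists were chosen with earlier results of these data known, so the counts over lists are descriptions. Named genes are the 7 genes and their related enzymes in full, while other lists give counts, with at most 4 called members of the largest change, and all members where a count is 5 or fewer. Where single members of such lists are given outside that rule (CRC1, CIT2, CAT8, UBC8), they were chosen after their values were seen.

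Equal replicate numbers were checked for pairing from the correlation of array deviations from group means: 33 pairs with equal numbers ranged from -0.305 to 0.437 with a median of 0.199, and 22 exceeded 0.1. The labels do not say what a number marks. All 3 pairs exceeded 0.1 for the limitations in snf1Δtor1Δ, for the limitations in the reference, and for snf1Δ against the reference in N-lim. These comparisons were taken as paired, but the main fit held no block. Its standard errors, intervals and p-values therefore do not use the pairing, and the replicate number entered only in alternative fits. Alternatives were median-centred arrays, another quantile normalization, values under the floor set to it, dim genes left out (under 6.66, 1362 genes), trend and robust variances, only the groups compared in the fit, the mean of a gene's probe sets, the replicate number as a block, each array left out in turn, and a floor at log2 4.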

Additional observations from a re-analysis of the deposited data

Results flagged for a closer look

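The effect of losing TOR1 in C-lim differed between cells without and with SNF1 by a test of the difference itself, on the log2 scale, for PCK1 (2.17), FBP1 (1.82), MLS1 (1.27) and ICL1 (1.09). PCK1 is the member with the largest such difference, and it is also the one that ended above the reference by the largest amount. The ICL1 difference lost its call with only the C-lim groups in the fit (adjusted p = 0.113, limma).

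The effect of losing SNF1 differed between limitations, N-lim minus C-lim, for FBP1 (4.47), SFC1 (1.59), IDP2 (1.51), PCK1 (1.09) and ICL1 (0.62). The ICL1 call was lost in several fits that left out 1 array. It was also lost with another quantile normalization (adjusted p = 0.0705, limma) and with only the groups compared in the fit (adjusted p = 0.0956, limma). FBP1 and SFC1 lay at the floor in N-lim in all strains, so for FBP1 and SFC1 the value rests on the C-lim difference.

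The effect of losing both kinases differed between limitations for FBP1 (2.47), IDP2 (1.67) and SFC1 (1.34), which were positive, and for MLS1 (-2.04), PCK1 (-1.60) and MDH2 (-0.83), which were negative. For FBP1 and SFC1 the value rests on the C-lim fall here too. For MLS1 the double deletion lowered the level by 2.47 in N-lim and by 0.42 in C-lim relative to the reference.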

How the results depend on the processing

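Of 619 alternative counts of members called, 616 stayed within 1.5 times, and of 3338 alternative member changes 3258 kept direction and side of the threshold. The exceptions in counts were 2 in place of 6 for snf1Δtor1Δ against snf1Δ in C-lim with only the groups compared, 3 in place of 5 for the SNF1 interaction with the limitation with dim genes left out (2 members left out with them were not tested), and a range of 0 to 1 with single arrays left out for tor1Δ against the reference in N-lim. Small changes that were not called turned sign. For tor1Δ against the reference in C-lim these were MDH2 at -0.0036 median-centred and ICL1 at 0.01 with the replicate block, and with single arrays left out MDH2 ranged from -0.05 to 0.12 and SFC1 from -0.04 to 0.01. With single arrays left out MDH2 ranged from -0.23 to 0.08 for snf1Δtor1Δ against the reference and from -0.27 to 0.04 against tor1Δ in C-lim, IDP2 from -0.19 to 0.09 against snf1Δ and from -0.02 to 0.26 for the interaction of both deletions, and MLS1 from -0.37 to 0.02 for the SNF1 interaction with the limitation. The cause was not tested. The replicate block could be fitted for 11 comparisons and ended only the ICL1 calls for snf1Δ against the reference in C-lim (-0.51, adjusted p = 0.0633, limma) and for the SNF1 interaction with the limitation (0.66, adjusted p = 0.0834, limma). It changed no call in the paired comparisons. It could not be fitted for snf1Δtor1Δ against another strain within a limitation, or for the interaction of both deletions. The snf1Δtor1Δ arrays share no replicate number with another strain, so strain and number cannot be told apart in those comparisons. The block is therefore no check on them. With a floor at log2 4 the bounds in N-lim against C-lim were 5.11, 1.23, 31.8 and 27.0 for FBP1 and 70.7, 48.9, 153 and 154 for SFC1 in snf1Δtor1Δ, snf1Δ, tor1Δ and the reference, by construction smaller. Signal near the floor limits FBP1 and SFC1 in N-lim. Their N-lim arrays also enter the shared spread behind the standard errors of their C-lim comparisons. For FBP1 the group SDs were 0.002 to 0.085 in N-lim and 0.13 to 0.45 in C-lim. The shared spread of FBP1 therefore understates the spread of its C-lim arrays, and its C-lim standard errors and p-values are too small to that extent.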
